A study of Mus musculus with 8 samples.

Results

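The 10 genes described here mark the interneurons of the striatum. They were chosen by name from RNA sequencing data of whole striatum, with earlier results of these data known. They were 10 of the 55032 genes in the table, with 4 genes of cholinergic neurons (Chat, Slc18a3, Slc5a7 and Lhx8) and 6 genes of GABA interneuron classes (Sst, Npy, Nos1, Pvalb, Th and Vip). Striatum was dissected from female C57BL/6 mice at postnatal day 60. The 4 control mice were wild type (WT-1015, WT-1041, WT-1061 and WT-1063). The other 4 mice were 16p11.2+/- (DF-1018, DF-1037, DF-1059 and DF-1062, where DF is the prefix in the sample names), which carry on chromosome 7 a heterozygous deletion of the segment that corresponds to human 16p11.2. The deletion is present in every cell of these mice, so a difference cannot be assigned to a cell type. Each library was made from total RNA of 1 mouse, and total counts on genes were between 15125051 and 16387993 in WT mice and between 15240680 and 16523429 in 16p11.2+/- mice. Of 8 genes of the deleted segment used to check the labels, all had lower fitted expression in 16p11.2+/- mice and 6 passed the test described below. Taok2, a kinase gene among them, had between 17.0 and 18.8 FPKM in WT mice and between 8.91 and 9.82 FPKM in 16p11.2+/- mice.

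Most neurons of the striatum are medium spiny neurons, which send GABA axons out of the region. Interneurons are a small minority whose axons stay within it. Cholinergic interneurons are large, fire tonically and release acetylcholine throughout the striatum. They take up choline through the transporter made by Slc5a7, join it to an acetyl group with the enzyme made by Chat, and load acetylcholine into vesicles with the transporter made by Slc18a3, while the transcription factor Lhx8 directs and maintains this identity. The GABA interneurons comprise fast-spiking cells that hold the calcium buffer parvalbumin (Pvalb), low-threshold spiking cells that share somatostatin (Sst), neuropeptide Y (Npy) and the neuronal nitric oxide synthase (Nos1), and cells that express tyrosine hydroxylase (Th). Vip, which encodes vasoactive intestinal peptide, marks a class of interneurons that is best known from cortex.

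No difference between 16p11.2+/- and WT striatum was detected for any of the 10 genes. Of these, 6 had higher and 4 had lower fitted expression in 16p11.2+/- mice, with a median log2 fold change of 0.07, against -0.01 over all 18294 genes tested. All 10 had enough counts to be tested, and 0 had an adjusted p under 0.05 in edgeR's quasi-likelihood test (Benjamini-Hochberg over all genes tested), where 0.109% of all genes tested did. At an unadjusted p under 0.05 the count was again 0 of 10, against 4.32% of all genes. The FPKM values (counts scaled to gene length and to the total of the mouse) of the groups overlapped for every one of the 10 genes, while they did not overlap for 2.83% of all genes tested. The smallest adjusted p was 0.859 (Th). Intervals were wide, so that a moderate difference was not detectable for most of these genes. The 95% interval of the fold between genotypes was narrowest for Sst, from 0.798 to 1.31 times the WT level, and widest for Vip, from 0.265 to 3.20 times.

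**Figure D1:**
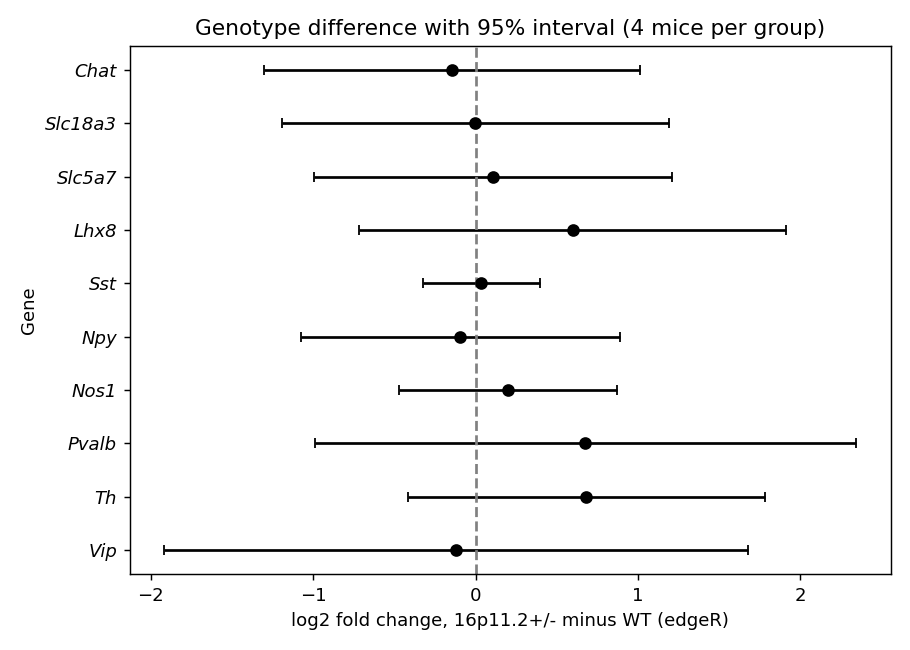
Log2 fold change of each interneuron gene, 16p11.2+/- minus WT, from edgeR (points) with its 95% interval (bars), 4 mice per group. Every interval crosses 0, and the interval of Sst, from -0.33 to 0.40, is the shortest.

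What these genes showed was a large spread between mice of the same genotype. The SD of log2 expression within groups was above the median of all genes tested (0.25) for all 10 genes, although Sst lay only at the 50.2nd percentile. Nos1 lay at the 83.0th percentile, Th at the 93.7th, Npy at the 93.8th, the 4 cholinergic genes between the 95.8th and the 97.4th, Pvalb at the 98.0th and Vip at the 99.1st. The highest FPKM was 1.57 times the lowest for Sst and 20.2 times the lowest for Vip. Counts ranged from 12 (Vip in WT-1063) to 2340 (Nos1 in DF-1062), with the fewest in all for Th, Vip, Slc18a3 and Lhx8. In tissue RNA, fewer cells of a type and less RNA per cell cannot be told apart.

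**Figure D2:**
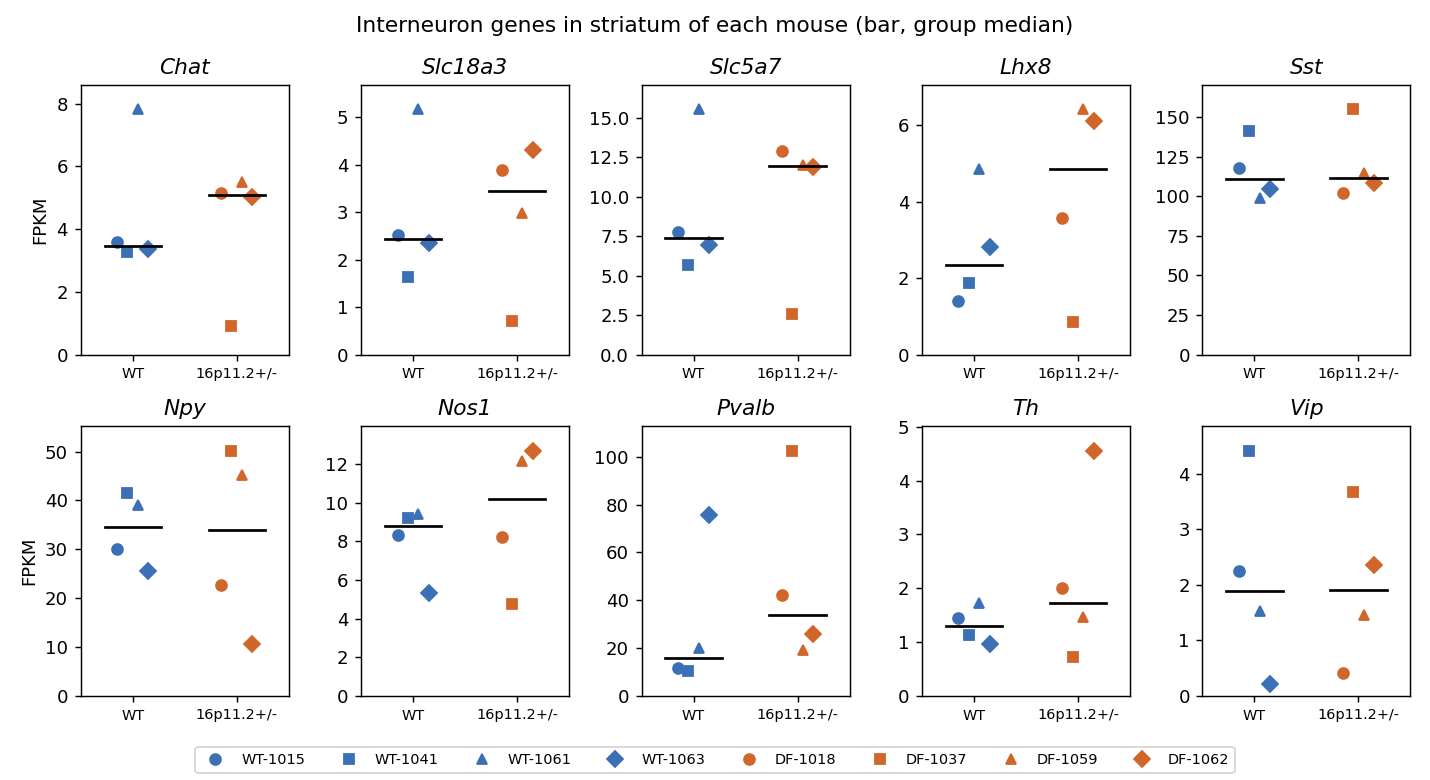
FPKM of the 10 genes in each of the 8 mice, WT in blue and 16p11.2+/- in orange, with a bar at the group median and each axis starting at 0. The groups overlap in every panel, and DF-1037 is the lowest mouse for Chat, Slc18a3, Slc5a7, Lhx8, Nos1 and Th and the highest for Sst, Npy and Pvalb.

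Ordered by level per length, Sst had the highest mean FPKM over the 8 mice (118), followed by Pvalb (38.5) and Npy (33.1). Slc5a7 (9.42) and Nos1 (8.77) were next, then Chat (4.32), Lhx8 (3.49), Slc18a3 (2.94), Vip (2.04) and Th (1.75). Each gene's range over the mice overlapped that of the next gene, so no neighbours in this order differed beyond their spread. Within each mouse, however, Sst was above Pvalb in 8 of 8 mice and Nos1 above Chat in 8 of 8.

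Chat (ENSMUSG00000021919) encodes choline acetyltransferase, the enzyme that makes acetylcholine. It lies on chromosome 14 from 32408203 to 32465989 on the minus strand (GENCODE M21, GRCm38). The FPKM of Chat was 3.58 in WT-1015, 3.26 in WT-1041, 7.81 in WT-1061 and 3.35 in WT-1063, and 5.16 in DF-1018, 0.914 in DF-1037, 5.49 in DF-1059 and 5.02 in DF-1062. One mouse of each genotype stood apart, WT-1061 above the other WT mice and DF-1037 below all the others, and the other 3 mice were close together in each group. The group means were 4.50 ± 2.21 (WT, SD, n = 4) and 4.15 ± 2.16 (16p11.2+/-, SD, n = 4). The log2 fold change of -0.14 (SE 0.51) was within this spread (edgeR adjusted p = 0.954). It was 0.27 without WT-1061 and 0.19 without DF-1037, so that its sign rested on either of these mice.

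Slc18a3 (ENSMUSG00000100241) encodes the vesicular acetylcholine transporter and shares its locus with Chat. It lies on chromosome 14 from 32462438 to 32464850, wholly inside the Chat gene and on the same strand, with start sites 1139 bases apart, and in the annotation the exons of the 2 genes share no sequence. The FPKM of Slc18a3 was 2.52 in WT-1015, 1.62 in WT-1041, 5.16 in WT-1061 and 2.36 in WT-1063, and 3.89 in DF-1018, 0.702 in DF-1037, 2.98 in DF-1059 and 4.31 in DF-1062. The same mice as for Chat were the highest and the lowest. The means were 2.92 ± 1.55 (WT, SD, n = 4) and 2.97 ± 1.61 (16p11.2+/-, SD, n = 4), and the log2 fold change was -0.0030 (SE 0.53, edgeR adjusted p = 0.999). Without WT-1061 it was 0.44 and without DF-1037 it was 0.33.

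Stretches upstream of the Chat and Slc18a3 starts are shown because these genes share a locus. They are from RefSeq (GRCm38.p6), on the minus strand, with a match to CGTCA in capitals. CGTCA is the core of the cAMP response element, which CREB binds, and it was searched on both strands from 250 bases before to 50 after the start. Such a match was found in 20.8% of 32851 promoters, so that it is common. The Chat window is chr14:32466050-32466106, with the match at -171 to -167 from the start, and the Slc18a3 window is chr14:32464869-32464925, with the match at -49 to -45.
Chat: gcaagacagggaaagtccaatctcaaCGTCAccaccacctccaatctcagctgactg
Slc18a3: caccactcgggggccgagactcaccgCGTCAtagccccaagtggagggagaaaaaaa

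Slc5a7 (ENSMUSG00000023945) encodes the high-affinity choline transporter, and it had the highest level of the cholinergic genes in every mouse. It lies on chromosome 17 from 54273590 to 54299034. The FPKM of Slc5a7 was 7.77 in WT-1015, 5.70 in WT-1041, 15.5 in WT-1061 and 6.96 in WT-1063, and 12.9 in DF-1018, 2.60 in DF-1037, 11.998 in DF-1059 and 11.9 in DF-1062. WT-1061 was again the highest and DF-1037 the lowest, and the other 3 mice of the 16p11.2+/- group were above the other 3 WT mice. The means were 8.99 ± 4.45 (WT, SD, n = 4) and 9.85 ± 4.85 (16p11.2+/-, SD, n = 4), with a log2 fold change of 0.11 (SE 0.48, edgeR adjusted p = 0.965). It was 0.52 without WT-1061 and 0.43 without DF-1037, and the edgeR adjusted p was still far from the threshold, at 0.842 or above in each fit that left out 1 mouse.

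Lhx8 (ENSMUSG00000096225) encodes a LIM homeobox transcription factor of cholinergic neurons. It lies on chromosome 3 from 154306294 to 154330659. The FPKM of Lhx8 was 1.41 in WT-1015, 1.88 in WT-1041, 4.84 in WT-1061 and 2.81 in WT-1063, and 3.58 in DF-1018, 0.849 in DF-1037, 6.41 in DF-1059 and 6.12 in DF-1062. DF-1037 was the lowest mouse here too, but DF-1059 and DF-1062 exceeded WT-1061. The means were 2.74 ± 1.52 (WT, SD, n = 4) and 4.24 ± 2.59 (16p11.2+/-, SD, n = 4), and the log2 fold change of 0.60 (SE 0.58) did not pass the test (edgeR adjusted p = 0.864). It was 1.04 without WT-1061, 0.94 without DF-1037 and 0.33 without DF-1059. With the score of globus pallidus and basal forebrain (Npas1, Nkx2-1, Zic1 and Gbx1) as a covariate it was -0.21. That score holds Nkx2-1, which followed Lhx8 closely across mice (r = 0.986), so this fit cannot separate Lhx8 from the score.

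The levels of the 4 cholinergic genes were positively related across mice, and 2 of the 6 pairs passed the test after adjustment. After the group means of log2 CPM (counts scaled to library size) were subtracted, Chat and Slc5a7 had a Pearson r of 0.991 (n = 8 mice, exact permutation within groups p = 0.0035, adjusted over 9 pairs p = 0.031) and a Spearman rho of 0.976 (exact permutation adjusted p = 0.078). Slc18a3 and Slc5a7 had an r of 0.984 (exact permutation p = 0.0104, adjusted p = 0.047) and a rho of 0.929 (exact permutation adjusted p = 0.090). The other 4 cholinergic pairs had r between 0.884 and 0.964 (exact permutation adjusted p = 0.070 each) and rho between 0.762 and 0.905 (exact permutation adjusted p from 0.090 to 0.091). No rank correlation passed the threshold after adjustment. These relations rested largely on the mice that stood apart. Without WT-1061 and DF-1037, r was 0.739 for Chat and Slc5a7 (exact permutation p = 0.139) and 0.721 for Slc18a3 and Slc5a7 (exact permutation p = 0.278), whereas it was 0.078 for Chat and Slc18a3 and between -0.44 and -0.27 for the 3 pairs with Lhx8.

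Ratios within a mouse set the shared rise and fall aside, and were computed after the values had been seen. The ratio of Slc5a7 to Chat FPKM was 2.17, 1.75, 1.99 and 2.08 in WT-1015, WT-1041, WT-1061 and WT-1063, and 2.50, 2.84, 2.18 and 2.37 in DF-1018, DF-1037, DF-1059 and DF-1062. The groups did not overlap, but only narrowly, with means of 1.99 ± 0.18 (WT, SD, n = 4) and 2.47 ± 0.28 (16p11.2+/-, SD, n = 4). The exact two-sided permutation p on the log2 ratio was 0.0286, the smallest that 4 mice against 4 allow, and 0.0857 when adjusted over the 3 ratios, which does not pass the threshold. Leaving out 1 mouse at a time raised the unadjusted exact p to 0.0571 in 5 of 8 cases, and the log2 ratio still differed by between 0.239 and 0.366. The exact test has fewer assignments with a mouse left out, so this rise does not show that the difference rested on 1 mouse. Lhx8 to Chat was 0.607 ± 0.183 (WT, SD, n = 4) against 1.002 ± 0.242 (16p11.2+/-, SD, n = 4), with an exact permutation p of 0.0571, and Slc18a3 to Chat was 0.641 ± 0.098 (WT, SD, n = 4) against 0.731 ± 0.134 (16p11.2+/-, SD, n = 4), with an exact permutation p of 0.343.

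No difference between genotypes was detected in other genes of cholinergic neurons either. Of 9 such genes, 8 had higher and 1 had lower fitted expression in 16p11.2+/- mice, with a median log2 fold change of 0.27, and 0 passed the test (0 also at an unadjusted p under 0.05). Those with the smallest p were Chrm2, a muscarinic receptor that inhibits release (log2 fold change 0.50, SE 0.27, edgeR adjusted p = 0.859), Gbx2, a transcription factor of the developing cells (1.89, SE 1.02), Ache, the enzyme that breaks acetylcholine down (0.47, SE 0.27), and Isl1, a LIM homeobox factor (0.27, SE 0.22). Gbx2 was 6.25 FPKM in DF-1062 and between 0.061 and 1.85 FPKM in the other 7 mice. The mean log2 CPM of the 9 genes was also highest in DF-1062 (4.74, against 2.91 to 4.04 in the others). Not every gene was raised there, since Slc17a8 (2.71 FPKM) was within the range of the other mice. The part of DF-1062 in the fold changes of this list was not tested. Slc10a4, a protein of cholinergic vesicles, was lowest in DF-1037 (1.30 FPKM) and between 4.43 and 8.94 FPKM in the other mice. Slc17a8, a vesicular glutamate transporter of these interneurons, had 1.13 FPKM in DF-1037 and between 2.62 and 6.19 FPKM in the others. DF-1037 was thus low in further cholinergic genes, whereas its Ache (14.2 FPKM) and Chrm2 (6.93 FPKM) were within the range of the other mice.

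Sst (ENSMUSG00000004366), the most abundant and most even of the 10 genes, encodes the peptide somatostatin. It lies on chromosome 16 from 23889573 to 23890958. The FPKM of Sst was 118 in WT-1015, 141 in WT-1041, 98.8 in WT-1061 and 104 in WT-1063, and 102 in DF-1018, 155 in DF-1037, 115 in DF-1059 and 108 in DF-1062. One mouse of each genotype, WT-1041 and DF-1037, was higher than the rest of its group. These 2 mice also had the highest scores of cortical glutamatergic neuron markers described below for Vip (5.68 and 5.83), whose part in Sst was not tested. The means were 116 ± 18.9 (WT, SD, n = 4) and 120 ± 23.8 (16p11.2+/-, SD, n = 4), with a log2 fold change of 0.03 (SE 0.16, edgeR adjusted p = 0.964).

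Npy (ENSMUSG00000029819), on chromosome 6 from 49822710 to 49829507, encodes neuropeptide Y and is expressed in many of the same interneurons. The FPKM of Npy was 30.1 in WT-1015, 41.5 in WT-1041, 39.0 in WT-1061 and 25.6 in WT-1063, and 22.7 in DF-1018, 50.2 in DF-1037, 45.2 in DF-1059 and 10.6 in DF-1062. The 16p11.2+/- mice held both the highest and the lowest values, and the WT mice lay between them. Npy was lowest in DF-1062, DF-1018 and WT-1063, the 3 mice with the lowest cortical scores (1.67 to 2.20), whose part was not tested. The means were 34.1 ± 7.48 (WT, SD, n = 4) and 32.2 ± 18.7 (16p11.2+/-, SD, n = 4), with a log2 fold change of -0.09 (SE 0.43, edgeR adjusted p = 0.965), and it was 0.22 without DF-1062, 0.04 without DF-1018 and -0.39 without DF-1037.

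Nos1 (ENSMUSG00000029361), on chromosome 5 from 117781032 to 117958840, encodes the neuronal nitric oxide synthase. Gm26995 on the opposite strand covers 2.40% of its exon sequence. The FPKM of Nos1 was 8.32 in WT-1015, 9.23 in WT-1041, 9.41 in WT-1061 and 5.34 in WT-1063, and 8.23 in DF-1018, 4.78 in DF-1037, 12.1 in DF-1059 and 12.7 in DF-1062. DF-1037 had the lowest Nos1 although it had the highest Sst and Npy. The means were 8.08 ± 1.89 (WT, SD, n = 4) and 9.46 ± 3.70 (16p11.2+/-, SD, n = 4), with a log2 fold change of 0.20 (SE 0.30, edgeR adjusted p = 0.897).

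The 3 genes of the low-threshold spiking class were not detectably related across mice. With group means subtracted, r was 0.622 for Sst and Npy (n = 8 mice, rho = 0.643, exact permutation p = 0.153 and adjusted over 9 pairs p = 0.196), -0.45 for Sst and Nos1 (rho = -0.43, exact permutation p = 0.345) and -0.29 for Npy and Nos1 (rho = -0.05, exact permutation p = 0.648). Both relations with Nos1 changed sign when the 2 mice farthest from the median were left out.

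Pvalb (ENSMUSG00000005716), on chromosome 15 from 78191114 to 78206400, encodes parvalbumin. The FPKM of Pvalb was 11.7 in WT-1015, 10.4 in WT-1041, 20.2 in WT-1061 and 75.9 in WT-1063, and 42.0 in DF-1018, 102.6 in DF-1037, 19.3 in DF-1059 and 25.9 in DF-1062. WT-1063, DF-1018 and DF-1037 were the highest, and the 2 groups overlapped from 19.3 to 75.9 FPKM. The means were 29.6 ± 31.2 (WT, SD, n = 4) and 47.5 ± 38.0 (16p11.2+/-, SD, n = 4), with a log2 fold change of 0.67 (SE 0.73, edgeR adjusted p = 0.874). Single mice decided this value, since the log2 fold change was 1.73 without WT-1063 and -0.03 without DF-1037.

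The mice with high Pvalb were those with high levels of thalamic markers. Pvalb is also expressed in fast-spiking neurons outside the striatum, the reticular thalamic nucleus among them. The mean log2 CPM of 7 thalamus markers (Tcf7l2, Prkcd, Lef1, Slc17a6, Ntng1, Plekhg1 and Synpo2) was 7.34 in WT-1063, 6.48 in DF-1018, 7.33 in DF-1037 and 6.62 in DF-1062, and between 4.03 and 4.34 in the other 4 mice. Slc17a6, a vesicular glutamate transporter expressed in thalamic neurons, was between 16.8 and 56.0 FPKM in those 4 mice and between 1.58 and 5.47 FPKM in the others. The 4 mice with high thalamic markers had the 4 highest Pvalb values. All 7 thalamus markers had higher fitted expression in 16p11.2+/- mice (median log2 fold change 0.76), and 0 passed the test. The log2 fold change of Pvalb was -0.02 with the thalamus score as a covariate, 0.25 with the medium spiny neuron score, 0.66 with that of globus pallidus and basal forebrain and 0.82 with the cortical score (edgeR adjusted p from 0.911 to 0.999). The part of thalamic tissue in the level of Pvalb was not tested.

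Th (ENSMUSG00000000214), on chromosome 7 from 142892752 to 142931128, encodes tyrosine hydroxylase, the enzyme that makes L-DOPA, and had the lowest mean level of the 10 genes. The FPKM of Th was 1.45 in WT-1015, 1.13 in WT-1041, 1.73 in WT-1061 and 0.968 in WT-1063, and 2.00 in DF-1018, 0.717 in DF-1037, 1.46 in DF-1059 and 4.56 in DF-1062. DF-1062 stood above the other 7 mice. The means were 1.32 ± 0.339 (WT, SD, n = 4) and 2.18 ± 1.67 (16p11.2+/-, SD, n = 4), with a log2 fold change of 0.68 (SE 0.48, edgeR adjusted p = 0.859), and the log2 fold change was 0.09 without DF-1062 and 0.0009 with the score of globus pallidus and basal forebrain as a covariate. In DF-1062 Oxt and Avp, the peptide genes of hypothalamic neurosecretory neurons, had 107.5 and 59.5 FPKM, whereas in the other 7 mice Oxt was at most 1.60 FPKM and Avp at most 2.37 FPKM. The mean log2 CPM of 7 hypothalamus markers was 2.33 in DF-1062 and between -2.02 and -0.14 in the others. Of these markers, Pomc and Agrp were not raised in DF-1062. Pomc was 0.367 FPKM there, against 0.370 to 0.793 FPKM in the others, and Agrp was 2.03 against 1.17 to 2.49 FPKM. The part of the hypothalamus markers in the level of Th was not tested. Of the genes of dopamine and noradrenaline neurons, Slc6a3 (the dopamine transporter) was between 0.018 and 0.141 FPKM and Pitx3 at 0 in 6 of 8 mice, whereas Ddc, the next enzyme after Th, was between 2.04 and 5.38 FPKM and Slc18a2, the vesicular monoamine transporter, between 3.53 and 5.37 FPKM, both above Th in 8 of 8 mice.

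Vip (ENSMUSG00000019772), on chromosome 10 from 5639218 to 5647617, encodes vasoactive intestinal peptide and had the largest spread. The FPKM of Vip was 2.25 in WT-1015, 4.41 in WT-1041, 1.52 in WT-1061 and 0.218 in WT-1063, and 0.405 in DF-1018, 3.68 in DF-1037, 1.46 in DF-1059 and 2.35 in DF-1062. WT-1063 and DF-1018 were far below the other mice, with 12 and 21 counts. The means were 2.102 ± 1.76 (WT, SD, n = 4) and 1.97 ± 1.39 (16p11.2+/-, SD, n = 4), with a log2 fold change of -0.12 (SE 0.79, edgeR adjusted p = 0.976). It was 0.53 without WT-1041, 0.23 without DF-1018 and -0.61 without DF-1037. The mean log2 CPM of 7 markers of cortical glutamatergic neurons was lowest in the same 2 mice (2.00 and 1.67) and in DF-1062 (2.20), and it was highest in WT-1041 (5.68) and DF-1037 (5.83), which had the highest Vip. Neurod6, a transcription factor of cortical pyramidal neurons, was 16.2 and 18.2 FPKM in WT-1041 and DF-1037 and between 0.115 and 0.275 FPKM in WT-1063, DF-1018 and DF-1062. DF-1062 did not follow this order, since its Vip was above the median. Cux2 of the same list differed from Neurod6, with 6.18 FPKM in WT-1063, 4.17 in DF-1018 and 6.05 in DF-1062. It was 3.40 FPKM in WT-1041, 10.2 in DF-1037 and between 1.73 and 3.77 FPKM in the remaining mice. The part of cortical tissue in the level of Vip was not tested.

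**Figure D3:**
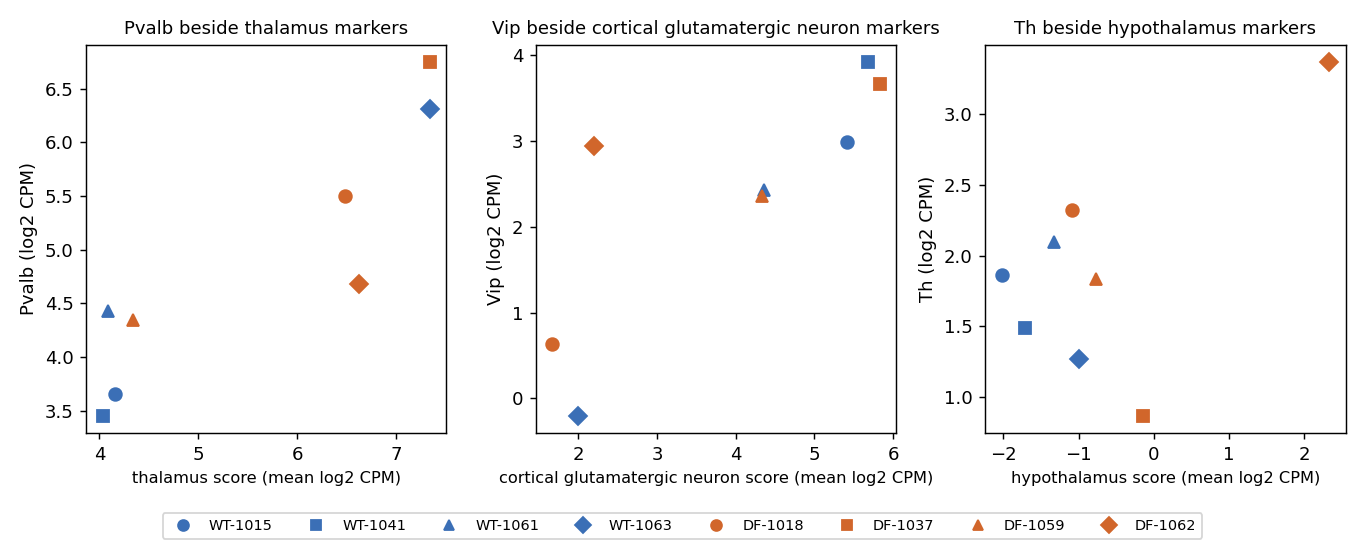
Log2 CPM of Pvalb, Vip and Th (vertical axes) beside the mean log2 CPM of markers of thalamus, cortical glutamatergic neurons and hypothalamus (horizontal axes) in the 8 mice, WT in blue and 16p11.2+/- in orange. The 4 mice with a thalamus score above 6 have the 4 highest Pvalb values, the lowest Vip values lie at low cortical scores apart from DF-1062, and DF-1062 stands alone in the panel of Th.

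Upstream stretches of Sst, Th, Vip and Nos1 are shown because the somatostatin gene is the classic target of the cAMP response element and 3 further genes of the GABA classes held all or the core of it. The full palindrome TGACGTCA was found within the promoter windows of Sst and Th alone among the 10 genes, and in 1.79% of the 32851 promoters. Its core CGTCA, which also lies within TGACGTCA, was found in 6 of the 10 genes (Chat, Slc18a3, Sst, Th, Vip and Nos1), and no match was found in the windows of Slc5a7, Lhx8, Npy and Pvalb. The windows, from RefSeq (GRCm38.p6) and 5′ to 3′ on the strand of each gene, are chr16:23890859-23890918 (minus strand) for Sst, chr7:142900007-142900066 (minus strand) for Th, chr10:5639113-5639169 (plus strand) for Vip and chr5:117866683-117866739 (plus strand) for Nos1, with the match in capitals. The RefSeq starts used for Sst, Nos1 and Th lie inside the GENCODE spans given above, as does that used for Chat. Sst and Th, which share the full element, differed in level (118 against 1.75 FPKM) and in spread between mice, and no genotype difference was detected for either.
Sst: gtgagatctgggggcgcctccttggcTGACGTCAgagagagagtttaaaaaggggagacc
Th: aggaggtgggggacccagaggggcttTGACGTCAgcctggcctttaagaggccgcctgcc
Vip: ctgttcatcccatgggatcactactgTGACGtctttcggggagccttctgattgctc
Nos1: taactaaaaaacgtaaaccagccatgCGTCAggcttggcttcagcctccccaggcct

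Among 20 further genes of GABA interneurons, 15 had higher and 5 had lower fitted expression in 16p11.2+/- mice, with a median log2 fold change of 0.23 against -0.01 over all genes tested. None of them passed the test, and 1 had an unadjusted p under 0.05. This was Kcnc1, a potassium channel of fast-spiking neurons, at 17.6 ± 5.23 FPKM in WT (SD, n = 4) and 26.2 ± 7.63 FPKM in 16p11.2+/- mice (SD, n = 4) (log2 fold change 0.55, SE 0.24, edgeR adjusted p = 0.859). The 4 mice with high thalamic markers had the 4 highest Kcnc1 values (22.5 to 36.8 FPKM, against at most 19.2 FPKM in the others), with DF-1037 the highest as for Pvalb, and the part of these markers was not tested. Next in order of p were Crh, which encodes corticotropin-releasing hormone (log2 fold change 1.38, SE 0.61), Ndnf (-0.79, SE 0.39) and Pthlh (-0.50, SE 0.27). Crh was highest in DF-1062, at 6.97 FPKM, where Oxt and Avp were high. Gad1, Gad2 and Slc32a1, which make and package GABA in all GABA neurons, were more even than most of the 10 genes, with Gad1 between 76.7 and 105 FPKM over the 8 mice.

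Receptors for the transmitters of these interneurons were examined next. Of 14 acetylcholine receptor genes, 12 had enough counts to be tested (Chrna6 and Chrnb3 did not), 9 had higher and 3 had lower fitted expression in 16p11.2+/- mice with a median log2 fold change of 0.30, and 0 passed the test (0 also at an unadjusted p under 0.05). Chrnb2, the main nicotinic beta subunit of brain, had the smallest p, with 7.03 ± 1.80 FPKM in WT (SD, n = 4) and 9.12 ± 1.78 FPKM in 16p11.2+/- mice (SD, n = 4) (log2 fold change 0.35, SE 0.18, edgeR adjusted p = 0.859). The 4 mice with high thalamic markers also had the 4 highest Chrnb2 values (8.45 to 11.6 FPKM, against at most 7.53 FPKM), and their part was not tested. Chrm1 and Chrm4, the muscarinic receptors of medium spiny neurons, had log2 fold changes of -0.30 (SE 0.37) and -0.38 (SE 0.42). The mean log2 CPM of the 14 acetylcholine receptor genes was highest in DF-1062 (3.18, against 2.21 to 2.53 in the others), although Chrm1 was lowest there (5.01 FPKM). The part of this mouse in the fold changes was not tested. Of 13 receptor genes for somatostatin, neuropeptide Y, vasoactive intestinal peptide and nitric oxide, 6 were higher and 7 lower with a median of -0.10, and 0 passed the test (0 also at an unadjusted p under 0.05). The smallest p among them was that of Gucy1a2, a subunit of the nitric oxide receptor guanylyl cyclase (log2 fold change -0.40, SE 0.18, edgeR adjusted p = 0.859). Of 7 genes of dopamine and noradrenaline neurons only Ddc and Slc18a2 had enough counts to be tested, and their log2 fold changes of -0.37 (SE 0.29) and -0.07 (SE 0.15) did not pass the test.

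Genes of medium spiny neurons were expressed in all 8 mice, but their level was not even. Drd1 was below Slc17a6 of the thalamus list in DF-1037 (18.3 against 40.5 FPKM) and DF-1062 (14.6 against 56.0 FPKM), and above it in the other mice. The presence of medium spiny neuron genes alone therefore does not settle the label of the tissue. The mean log2 CPM of 10 medium spiny neuron genes was between 7.87 and 8.57 in WT mice, 8.53 in DF-1018, 6.61 in DF-1037, 8.39 in DF-1059 and 6.25 in DF-1062. Ppp1r1b, which encodes the dopamine-regulated phosphoprotein DARPP-32, was 83.5 FPKM in DF-1037 and 47.5 FPKM in DF-1062 and between 220 and 359 FPKM in the other 6 mice. Pdyn of the same list was 23.0 FPKM in DF-1062, within the range of the other mice (17.8 in DF-1037 to 29.8 in DF-1018). DF-1037 thus combined low cholinergic and medium spiny neuron genes with high thalamic and cortical markers. In DF-1062 medium spiny neuron genes other than Pdyn were low, whereas Chat, Slc18a3, Slc5a7 and Lhx8 were in the range of the other mice. The score of the 9 other genes of cholinergic neurons was highest in DF-1062 (4.74, against 2.91 to 4.04 in the others). The score of 4 genes of globus pallidus and basal forebrain, regions that hold other cholinergic neurons, was highest in DF-1062 (4.26) and between 2.66 and 3.69 in the others. Choroid plexus markers were high in WT-1063, where Ttr had 84201 counts against at most 8351 in the other mice. Of the 10 medium spiny neuron genes 9 had lower fitted expression in 16p11.2+/- mice (median log2 fold change -0.52), of 7 cortical genes 6 (-0.58) and of 3 choroid plexus genes with enough counts 3 (-3.52), whereas all 4 genes of globus pallidus and basal forebrain (0.37) and both hypothalamus genes with enough counts (0.13) were higher. None of them passed the test, and 2 choroid plexus genes (Ttr and Kl) had an unadjusted p under 0.05. Without WT-1063, DF-1037 and DF-1062 together, which was chosen after the values were seen, 0 of the 10 interneuron genes passed the test, and their part in the spread was not tested otherwise.

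**Figure D4:**
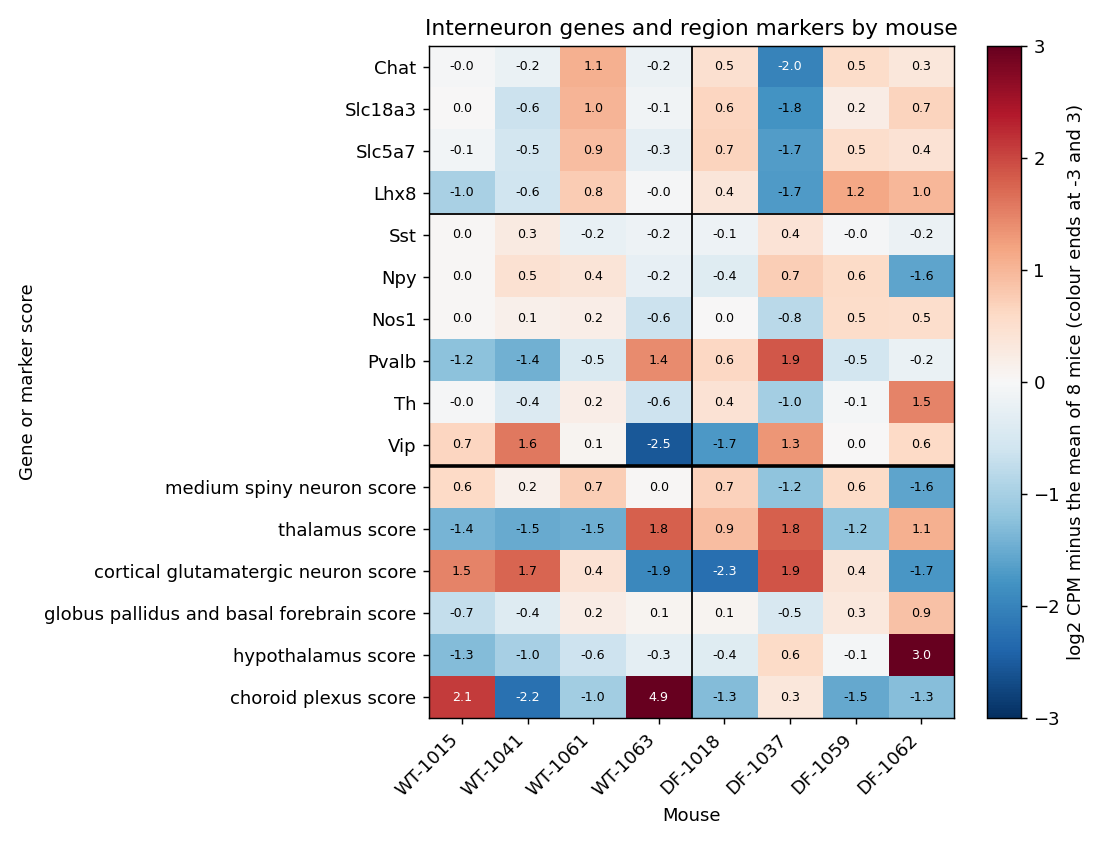
Log2 CPM of the 10 interneuron genes and mean log2 CPM of 6 marker lists in each mouse, minus the mean of the 8 mice; red is higher and blue is lower, the colour scale ends at -3 and 3, and lines separate the genotypes and the groups of genes. In DF-1037 the 4 cholinergic genes and the medium spiny neuron score are low while Sst, Npy, Pvalb, Vip and the thalamus and cortical scores are high.

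The genes whose levels followed each interneuron gene most closely over the 8 mice are given as a description, as the highest of 14857 genes compared by r of log2 CPM with group means subtracted. For Chat and Slc5a7 the closest gene was Cd44, with r of 0.995 and 0.998, followed by Klhl7, and Slc32a1, the vesicular GABA transporter, was the third for Chat. Nit2, Zfp597 and Cd44 were closest to Slc18a3 (r from 0.973 to 0.994). Lhx8 was followed by Vkorc1l1, by Nkx2-1 (r = 0.986), which encodes a homeobox factor of the ventral forebrain in which these interneurons arise, and by Slc25a29. Cplx1, which encodes a complexin of synaptic vesicle release, was closest to Pvalb (r = 0.993), followed by Cacna2d4 and Tspan9. The closest genes were Slc50a1, Brinp2 and Irf2 for Sst, C030006N10Rik, 2900055J20Rik and Lurap1 for Npy, and Keap1, Fam120c and Rab36 for Nos1. For Th they were Pisd-ps2, Eml6 and Kat7, and for Vip they were Espn, Gm2824 and Sema6b. With 8 mice and this many genes compared, values near 1 are found for every gene.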

How the data were processed

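Whole striatum of 4 WT and 4 16p11.2+/- mice was sequenced, 1 library per mouse. The authors filtered the reads, mapped them with Hisat2 and counted them per gene with Htseq-count. They deposited these raw counts and the FPKM, which is the count over gene length and library total. Neither the build nor the strand setting is given in the methods, and the submitters' processing notes list mm8, mm9 and Bowtie 0.12.2 with no role. Positions are from GENCODE M21, whose exon lengths were within 1% of those implied by FPKM for 96.2% of 17180 genes. The deposited fold changes and p-values of the authors' own comparison and a summary of FPKM in bins were not used.

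The main test was edgeR 4.0.16 under R 4.3.3, with TMM factors, filterByExpr (at least 10 counts in enough mice and 15 in all), the quasi-likelihood test and Benjamini-Hochberg adjustment over 18294 genes at a threshold of 0.05. The SE was derived from the fold change and F statistic. FPKM and ratios were compared by exact permutation over 70 assignments of the mice, and pairs of genes over 576 assignments within groups. Log2 CPM used a prior count of 2. No label gives a batch or says which mice were littermates.

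The genes named were all 10 members, the 3 genes closest to each (mean log2 CPM of at least 1), at most 4 genes of each list with the smallest p, and markers that moved with a member. Slc10a4, Slc17a8, Chrm1, Chrm4, Gad1, Gad2 and Slc32a1 were singled out after their values were seen. Members and lists were chosen with earlier results of these data known. The ratios to Chat and the fit without 3 mice were added after the values were seen. Alternatives were DESeq2 1.42.0, limma 3.58.1 (voom on counts, and trend on log2 FPKM with a pseudocount of 1 or 0.1), library totals, RLE factors, looser and stricter filters, marker scores as covariates, and fits without single mice. A simulation with 200 changed genes was used to check the code.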

Additional observations from a re-analysis of the deposited data

Results flagged for a closer look

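Of 20 groups of 4 values, 4 held a mouse far from the others by Dixon's test, which chance alone gives in about 1 of 20 groups. For Chat, WT-1061 (7.81 FPKM, the other WT mice from 3.26 to 3.58) had a gap of 0.929 of the group's range, and DF-1037 (0.914 FPKM, the other 16p11.2+/- mice from 5.02 to 5.49) had a gap of 0.896. For Slc5a7, DF-1037 (2.60 FPKM, the others from 11.9 to 12.9) had a gap of 0.899. For Pvalb, WT-1063 (75.9 FPKM, the others from 10.4 to 20.2) had a gap of 0.851. Chat and Slc5a7 moved together, so these flags are not independent of each other.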

How the results depend on the processing

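No interneuron gene and no gene of the other lists passed the test in any of the 21 alternative fits, 8 of them without 1 mouse, and the smallest adjusted p of an interneuron gene over all of them was 0.529. The directions of several differences did change, those of Lhx8 and Pvalb among them, and the cause was not tested. The log2 fold change of Chat was 0.16 with the thalamus score as covariate, 0.18 with the medium spiny neuron score and 0.12 without WT-1063, DF-1037 and DF-1062. For Slc18a3 it was 0.0062 with DESeq2, 0.0039 with RLE factors, 0.0272 with library totals, 0.20 with the thalamus score, 0.23 with the medium spiny neuron score and 0.14 without the 3 mice, and the difference of mean TMM-scaled CPM was -0.016. It was -0.0200 for Slc5a7 and 0.18 for Vip with limma-voom, and 0.00034 and 0.10 for Vip with limma-trend on log2 FPKM and pseudocounts of 1 and 0.1. With the cortical score it was -0.24 for Slc5a7, 0.0195 for Npy and 0.73 for Vip. With the score of globus pallidus and basal forebrain it was -0.38 for Slc5a7, -0.21 for Lhx8, 0.10 for Npy, -0.0868 for Nos1 and 0.29 for Vip, and that of Th fell from 0.68 to 0.0009 without a change of sign. The score of globus pallidus and basal forebrain holds Nkx2-1, also a gene of the GABA interneuron list, which followed Lhx8 closely. With the thalamus score the log2 fold change was 0.10 for Npy, -0.0191 for Pvalb and 0.69 for Vip. With the medium spiny neuron score it was -0.0439 for Sst and 0.0439 for Npy, and without the 3 mice it was -0.13 for Sst, -1.53 for Vip (-0.12 with all mice) and 1.12 for Pvalb (0.67 with all mice).

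Leaving out each mouse in turn, the log2 fold change ranged from -0.31 to 0.27 for Chat, -0.20 to 0.44 for Slc18a3, -0.0683 to 0.52 for Slc5a7, 0.33 to 1.04 for Lhx8, -0.11 to 0.14 for Sst, -0.39 to 0.22 for Npy, 0.04 to 0.42 for Nos1, -0.0330 to 1.73 for Pvalb, 0.09 to 0.98 for Th and -0.61 to 0.53 for Vip. The difference of mean FPKM ranged from -0.804 to 0.747 for Chat, -0.391 to 0.813 for Slc18a3, -0.242 to 3.27 for Slc5a7, -7.23 to 13.01 for Sst, -7.89 to 5.31 for Npy, -0.474 to 33.3 for Pvalb and -0.757 to 0.641 for Vip. The r of pairs ranged from 0.869 to 0.984 for Chat and Slc18a3, 0.971 to 0.998 for Chat and Slc5a7, 0.727 to 0.956 for Chat and Lhx8, 0.943 to 0.994 for Slc18a3 and Slc5a7, 0.605 to 0.929 for Slc18a3 and Lhx8, 0.642 to 0.941 for Slc5a7 and Lhx8, 0.396 to 0.737 for Sst and Npy, -0.716 to 0.352 for Sst and Nos1 and -0.588 to 0.244 for Npy and Nos1. Without the 2 mice farthest from the median it was 0.0777 for Chat and Slc18a3, 0.739 for Chat and Slc5a7, -0.361 for Chat and Lhx8, 0.721 for Slc18a3 and Slc5a7, -0.272 for Slc18a3 and Lhx8, -0.441 for Slc5a7 and Lhx8, 0.180 for Sst and Nos1 and 0.358 for Npy and Nos1. The log2 ratio of Slc5a7 to Chat differed by between 0.239 and 0.366. No paired analysis was possible because each mouse has its own number. Counts were lowest for Th (26 to 178 per mouse), Slc18a3 (26 to 204) and Vip (12 to 230).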
